A study of Mus musculus with 7 samples.

Results

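The Hox gene clusters were examined in DNase-Seq of cultured mouse podocytes, the epithelial cells that wrap the capillaries of the glomerulus. The members were the protein-coding genes named Hoxa, Hoxb, Hoxc or Hoxd with a number in GENCODE vM21, which gave 39 of 21853 protein-coding genes with an annotated transcription start site (TSS). They comprised 11 genes of HoxA on chromosome 6, 10 of HoxB on chromosome 11, 9 of HoxC on chromosome 15 and 9 of HoxD on chromosome 2. The cells were differentiated podocytes of a conditionally immortalised mouse line, held for 36 h after growth arrest in reduced serum. NG cells received 5 mM glucose, HG+NT cells received 25 mM glucose and 50 nM of a non-targeting mimic, and HG+miR-93 cells received 25 mM glucose and 50 nM of a miR-93 mimic, an RNA that acts as the microRNA miR-93. The labels describe a mimic for the high glucose cells alone, so glucose and transfection cannot be told apart between NG and HG+NT. Each condition had 2 replicates and 1 sample of digested genomic DNA served as input, but the peaks were listed once per condition from pooled replicates. The variation among replicates therefore cannot be measured from them, and conditions were compared without a test. Intervals of pileups and ratios cover counting error only, those of medians are order-statistic intervals over genes, and all values come from 1 cell line.

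Hox genes encode homeodomain transcription factors that specify position along the body axis. They lie in 4 clusters, and genes at the same place in different clusters share a paralogue number, with low numbers used toward the head and high numbers toward the tail and in limbs and urogenital organs. In many cells a cluster is divided into a stretch held silent by Polycomb complexes and a stretch kept open by trithorax proteins, with CTCF sites at the borders. Members of paralogue group 11 are required for the metanephric kidney to form. DNaseI cuts DNA where nucleosomes are absent, so fragment ends gather at open promoters and enhancers.

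Every Hox gene had a peak within 500 nt of a TSS in all 3 lists, which separates them little from the other genes, since 21835 of the 21853 did too. The peaks covered 93.6% of the chromosomes under NG, 95.3% under HG+NT and 94.8% under HG+miR-93, and between 89.4% and 96.0% of each Hox cluster. The height of a peak was therefore used. The fragments at each summit were recovered from the deposited fold and p and scaled to the depth of the input, a value called the pileup here. For each gene the highest promoter peak was taken, and its percentile was its place among the 21835 promoters of the same list. The Hox summits lay a median of 357, 552 and 477 nt from the TSS under NG, HG+NT and HG+miR-93, in peaks of median width 3168, 4261 and 4238 bp, so that many values are those of the neighbourhood of a promoter. They held at least 8 fragments under NG, 12 under HG+NT and 18 under HG+miR-93, on lists whose depth was 2.24, 3.85 and 5.15 times that of the input. A −log10 q above 0 was listed for Hoxb9 under NG (1.33) and Hoxc13 under HG+NT (0.599), and for 0 Hox promoters under HG+miR-93. The cell type labels were read against podocyte promoters, of which Actn4, an actin crosslinker, lay at percentiles 86.3, 93.1 and 91.7, and Nphs1, which encodes nephrin of the slit diaphragm, at 31.2, 40.2 and 44.5. Of 2 leukocyte genes, Ptprc lay at 8.26, 7.43 and 6.03 and Cd68 at 43.4, 53.4 and 52.0. The median of the 9 podocyte markers was 51.5, 49.4 and 55.4 and that of 3 endothelial markers 43.4, 40.2 and 58.7, with 51.5, 49.4 and 48.4 over all promoters, so that these markers did not stand clear of promoters at large.

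Sequences of 4 places on which the results turn are shown first, all on GRCm38, the build of the files. The first covers 201 bases around a summit that recurred in all 3 lists, and the rest are the 250 bases before RefSeq starts of Hoxa10, a promoter with high pileup, and of Hoxa13 and Hoxd13, the members of HoxA and HoxD with the lowest mean percentile over the lists. They are written along the strand of the gene, and capitals mark matches on either strand to any of 5 motifs, where N is any base and matches may overlap. The motifs were TATAAA for the core promoter box of that name, CCAAT for the box bound by NF-Y, CNAGGNGGC for part of the CTCF core, TGATNNAT for sites of HOX with PBX, and TGANTCA for AP-1. The Hoxa9 site is chr6:52225803-52226003, and the starts are preceded by chr6:52240855-52241104 for Hoxa10, chr6:52260881-52261130 for Hoxa13 and chr2:74667975-74668224 for Hoxd13. The HoxD sequence is on the plus strand and the others are on the minus strand.
Hoxa9 site: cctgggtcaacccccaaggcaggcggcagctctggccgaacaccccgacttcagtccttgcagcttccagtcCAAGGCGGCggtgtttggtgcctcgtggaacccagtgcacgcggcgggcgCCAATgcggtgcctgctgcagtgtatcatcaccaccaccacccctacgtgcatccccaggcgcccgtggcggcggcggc
Hoxa10: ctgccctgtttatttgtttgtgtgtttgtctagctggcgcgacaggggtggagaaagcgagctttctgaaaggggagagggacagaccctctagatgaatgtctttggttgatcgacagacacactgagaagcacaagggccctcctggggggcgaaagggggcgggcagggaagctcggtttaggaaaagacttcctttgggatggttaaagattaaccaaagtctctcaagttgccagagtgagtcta
Hoxa13: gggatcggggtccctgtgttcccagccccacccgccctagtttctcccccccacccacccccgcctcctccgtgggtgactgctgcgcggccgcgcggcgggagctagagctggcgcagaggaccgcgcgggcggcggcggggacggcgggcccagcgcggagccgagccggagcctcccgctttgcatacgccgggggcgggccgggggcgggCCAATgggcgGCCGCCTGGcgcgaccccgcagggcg
Hoxd13: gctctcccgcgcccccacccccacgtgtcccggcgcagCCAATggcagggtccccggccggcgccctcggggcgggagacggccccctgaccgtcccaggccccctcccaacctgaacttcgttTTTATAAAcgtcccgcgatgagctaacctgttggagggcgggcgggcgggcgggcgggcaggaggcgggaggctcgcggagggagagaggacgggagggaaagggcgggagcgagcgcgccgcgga

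The 250 bases before Hoxa13 held 35 CpG dinucleotides and those before Hoxd13 held 31, against 7 before the Hoxa10 start shown. The 250 bases before a second RefSeq start of Hoxa10, chr6:52234940-52235189, held 20 CpG. The RefSeq promoter table held 24 windows of 300 bases for 22 of the 39 members. Those windows had a median of 14.5 CpG, against 7 over all 32851 windows of the table, and 12 of the 24 had a ratio of observed to expected CpG of at least 0.6, against 35.8% of all windows. A CCAAT box was found in 15 of the 24 windows (62.5%), against 37.4% of all windows. The letters TATAAA were found in 4 (16.7% against 13.6%), and CNAGGNGGC in 2, at Hoxa13 and Hoxd10 (8.33% against 8.38%). TGATNNAT was found in 4 windows, at Hoxa2, Hoxb1, Hoxb8 and Hoxd11 (16.7% against 8.85%), and TGANTCA in 1, at Hoxd11 (4.17% against 7.81%). CpG, the CCAAT box and TGATNNAT were thus more frequent in these windows than in promoters at large, which is a description of the windows and not of binding.

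Hox promoters lay around or a little above the middle of all promoters. Their median percentile was 58.3 under NG (95% order-statistic interval 51.5 to 64.9), 57 under HG+NT (49.4 to 66.2) and 61.9 under HG+miR-93 (52.0 to 70.1), where the median of all promoters lay at 51.5, 49.4 and 48.4 because of equal values. They spread from percentile 23.2 to 91.8 under NG and 17.2 to 92.6 under HG+NT, and from 22.2 upward under HG+miR-93. Above the 75th percentile lay 5, 8 and 10 of the 39 Hox genes, against 5174, 5601 and 5360 of all 21835 promoters. The Hox share was thus smaller than that of all promoters under NG and HG+NT and near it under HG+miR-93. Below the 25th lay 1, 2 and 1 Hox genes, against 5982, 5016 and 5159 of all promoters. By comparison, olfactory receptor genes, which are mainly expressed in the nose, had medians of 15.1, 10.2 and 10.4 over 1092 promoters, and 57 clustered protocadherins, another family in tandem clusters, had 23.2, 29.9 and 25.3. The place of the Hox median depended on which peak was taken. When the summit had to lie within 500 nt of a TSS, 29, 23 and 25 members remained under NG, HG+NT and HG+miR-93, and their medians were 45.9, 47.5 and 50.4. With only the 50000 strongest peaks of each list, promoters without such a peak share the lowest rank. The Hox medians were then 31.0 under NG, 27.7 under HG+NT and 67.9 under HG+miR-93. A median can be that shared rank itself, and the median of all promoters was not taken in this setting. These values therefore do not place the Hox genes above or below promoters at large.

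Among the high promoters, ordered by the mean percentile over the lists, Hoxb9, a posterior gene of the trunk, led HoxB. Its pileup was 12.1 under NG (95% exact Poisson interval 7.95 to 17.5), 8.31 under HG+NT (5.68 to 11.7) and 8.55 under HG+miR-93 (6.21 to 11.5), with summits 88, 19 and 79 nt past the TSS. Hoxc10, known for roles in hindlimb and lumbar identity, led HoxC with pileups of 9.83 under NG (6.16 to 14.9), 9.87 under HG+NT (6.98 to 13.5) and 8.16 under HG+miR-93 (5.88 to 11). Hoxd3 led HoxD at a lower level, with 8.04 under NG (4.76 to 12.7), 6.75 under HG+NT (4.41 to 9.89) and 5.83 under HG+miR-93 (3.93 to 8.32). In HoxA, Hoxa7, a trunk gene, was high, with 8.93 under NG (5.46 to 13.8), 10.6 under HG+NT (7.64 to 14.4) and 7.38 under HG+miR-93 (5.23 to 10.1). For each of these 4 genes the intervals of the lists overlapped.

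By mean percentile over the lists, the lowest promoter of the 39 was Hoxb1, which patterns a single hindbrain segment. Its pileup was 4.47 under NG (2.14 to 8.21), 3.38 under HG+NT (1.80 to 5.77) and 3.50 under HG+miR-93 (2.07 to 5.53), at percentiles 38.0, 21.1 and 22.2. In single lists Hoxc12 was the lowest under NG, at percentile 23.2, and Hoxd13 under HG+NT, at 17.2. Next by the mean came Hoxd13 and Hoxa13, which pattern digits and the genital tubercle and lie at the outer end of their clusters. Hoxd13 had 4.91 under NG (2.45 to 8.79), 3.12 under HG+NT (1.61 to 5.44) and 4.28 under HG+miR-93 (2.68 to 6.47). Hoxa13 had 4.91 under NG (2.45 to 8.79), 3.64 under HG+NT (1.99 to 6.10) and 4.28 under HG+miR-93 (2.68 to 6.47). Hoxc13, of the same paralogue group, had higher pileups of 7.15 under NG (4.08 to 11.6), 11.2 under HG+NT (8.08 to 15) and 8.36 under HG+miR-93 (6.05 to 11.3). In HG+NT the intervals of Hoxc13 and of Hoxa13 and Hoxd13 did not overlap, while in NG and HG+miR-93 they did. Hoxc13 and Hoxd13 lay at the ends of the range of the members in HG+NT, at percentiles 92.6 and 17.2. The share of promoter pairs with such a gap was not counted. By mean percentile the lowest of HoxC was Hoxc4. It had 4.02 under NG (1.84 to 7.63), 4.93 under HG+NT (2.97 to 7.71) and 5.44 under HG+miR-93 (3.62 to 7.86).

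**Figure D1:**
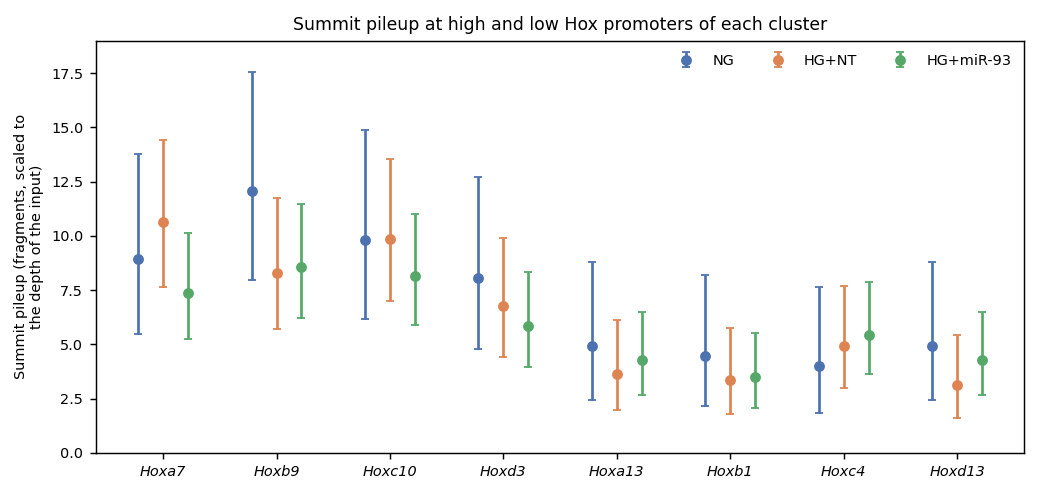
Summit pileup (fragments scaled to the depth of the input, vertical axis) at a promoter of high (left 4) and the promoter of lowest (right 4) mean percentile of each cluster, under NG, HG+NT and HG+miR-93; bars are 95% exact Poisson intervals. Hoxb9 ran from 8.31 to 12.1 and Hoxb1 from 3.38 to 4.47, and the intervals of the 3 lists overlapped for every gene shown.

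Neighbours in the order had overlapping intervals in every list. The order by mean percentile held Hoxb9 (87.9), Hoxc10 (85.8), Hoxa7 (82.7), Hoxc13 (80.8), Hoxc8 (79.6) and Hoxa10 (78.0) near its top, and ended with Hoxd11 (40.2), Hoxd1 (39.9), Hoxd4 (37.9), Hoxa13 (35.0), Hoxd13 (32.3) and Hoxb1 (27.1). Of those named near the top, 3 were of HoxC, and none was of HoxD.

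Paralogue group 11 was not among the high promoters in HoxA and HoxD. Hoxa11 had pileups of 5.36 under NG (2.77 to 9.36), 3.64 under HG+NT (1.99 to 6.10) and 4.86 under HG+miR-93 (3.14 to 7.17). Hoxd11 had 4.91 under NG (2.45 to 8.79), 3.64 under HG+NT (1.99 to 6.10) and 5.05 under HG+miR-93 (3.30 to 7.40). Both were lowest under HG+NT, at percentile 25.1, and their intervals overlapped between the lists. By the deposited folds Hoxd11 was lowest under HG+miR-93, at 1.51, against 2.11 under NG and 1.91 under HG+NT. For Hoxa11 the order depended on the promoter's width, since with 1000 nt on either side HG+NT was its highest list, at log2 ratios of 0.68 for HG+NT over NG and −0.82 for HG+miR-93 over HG+NT. Hoxc11 had 6.25 under NG (3.42 to 10.5), 6.23 under HG+NT (3.99 to 9.27) and 7.77 under HG+miR-93 (5.55 to 10.6), at percentiles 54.9, 66.2 and 84.8. By stretches of the clusters, the 8 genes of groups 1 to 3 had median percentiles of 56.5, 54.8 and 60.1, the 15 genes of groups 4 to 8 had 64.9, 57 and 61.9, and the 16 genes of groups 9 to 13 had 53.2, 61.6 and 58.6. The intervals of these medians overlapped in each list. The 2 members of group 7, Hoxa7 and Hoxb7, had the highest group median under NG, at 77.9. They lay at 78.8 and 78.2 under HG+NT and HG+miR-93, where the 3 members of group 10 were higher, at 83.8 and 81.9.

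By pileup, HoxC and HoxD lay close together under NG and apart in the high glucose lists, where the intervals of their medians did not overlap. By the deposited folds of the same peaks, the HG+NT median was 1.61 for HoxC and 1.72 for HoxD, so that HoxC was not above HoxD there. Under HG+miR-93 these fold medians were 1.79 and 1.51. The median percentile of HoxC was 54.9 under NG (31.2 to 71.6), 73.3 under HG+NT (57 to 89.0) and 84.8 under HG+miR-93 (70.1 to 87.3). That of HoxD was 51.5 under NG (43.4 to 68.3), 35.1 under HG+NT (25.1 to 53.4) and 48.4 under HG+miR-93 (36.4 to 55.4). The HoxC intervals overlapped between lists, as did the HoxD intervals, and other promoters of chromosome 15 moved the same way as HoxC. From NG to HG+NT the median log2 ratio of other promoters was 0.21 on chromosome 15 and −0.25 on chromosome 2, as given with the ratios. HoxA had 64.9, 60.3 and 61.9, and HoxB had 61.6, 55.2 and 56.9. In HG+miR-93 all 9 HoxC promoters lay above the 50th percentile and 6 above the 75th, while HoxD had 4 above the 50th and 0 above the 75th. Of those 6, Hoxc8, Hoxc9 and Hoxc12 had summits 3017, 4012 and 6435 nt from the TSS, in peaks 8543, 14453 and 16863 bp wide, and so show a wide neighbourhood.

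**Figure D2:**
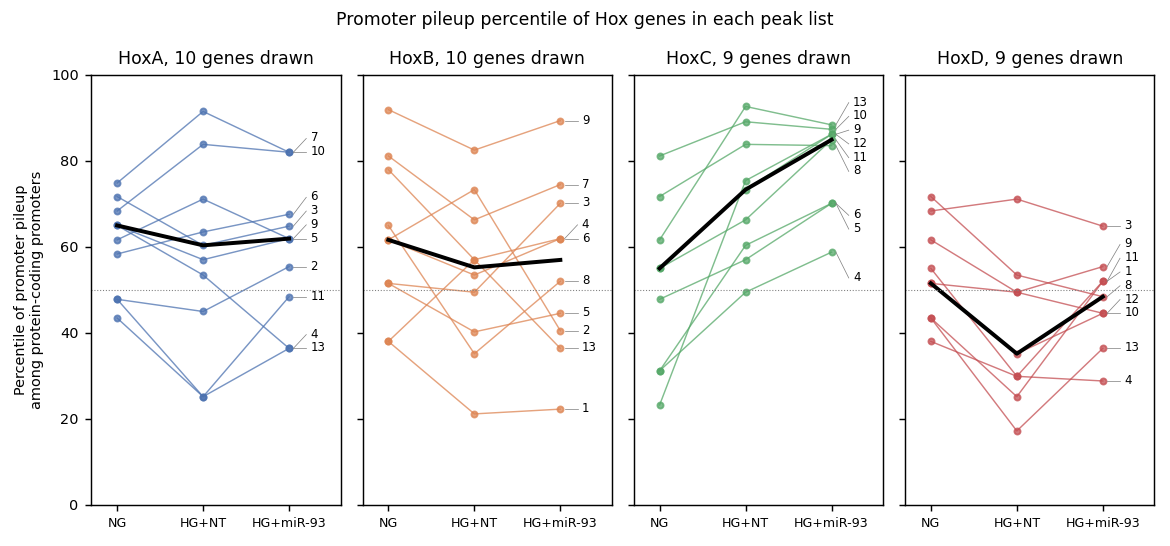
Percentile of the promoter pileup among the 21835 protein-coding promoters of each list (vertical axis) for 38 of the 39 Hox genes, 1 panel per cluster; thin lines join the values of 1 gene, the black line is the median of all genes of the cluster, the dotted line is the 50th percentile and numbers at the right are paralogue numbers. The HoxC median went from 54.9 to 73.3 to 84.8 and the HoxD median from 51.5 to 35.1 to 48.4.

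High peaks were counted across the whole of each cluster, and their number depended on how height was measured. The clusters span 491815 bp together, over which 3.74 of the 20000 strongest peaks of a list would fall if these were spread evenly over the chromosomes. By −log10 p, 26 of the 20000 strongest had their summit inside a Hox cluster under NG, 17 under HG+NT and 14 under HG+miR-93. By recovered pileup the counts were 52, 43 and 37. HoxA on chromosome 6 held 16, 16 and 12 of the latter, HoxB (chr11:96194316-96368256) 14, 9 and 9, HoxC (chr15:102921103-103036852) 13, 16 and 14, and HoxD (chr2:74668310-74765142) 9, 2 and 2. HoxD thus had the fewest by pileup in each list, but it is also the shortest cluster, at 96833 bp against 173941 bp for HoxB. Among non-overlapping windows of the same length over the genome, HoxA was at percentile 99.96, 99.9 and 99.5 for this count, HoxC at 99.9, 99.8 and 99.7, HoxB at 99.7, 97.0 and 96.6, and HoxD at 99.7, 87.5 and 87.9. By −log10 p the percentiles were 99.96, 98.3 and 91.7 for HoxA, 99.8, 89.8 and 73.5 for HoxB, 99.5, 98.9 and 98.8 for HoxC and 94.9, 85.5 and 92.8 for HoxD. By that measure HoxB held 2 of the 20000 strongest under HG+miR-93, against 1.32 by its length. Gene-dense windows hold more promoters than the average window, and a comparison at equal gene density was not made.

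**Figure D3:**
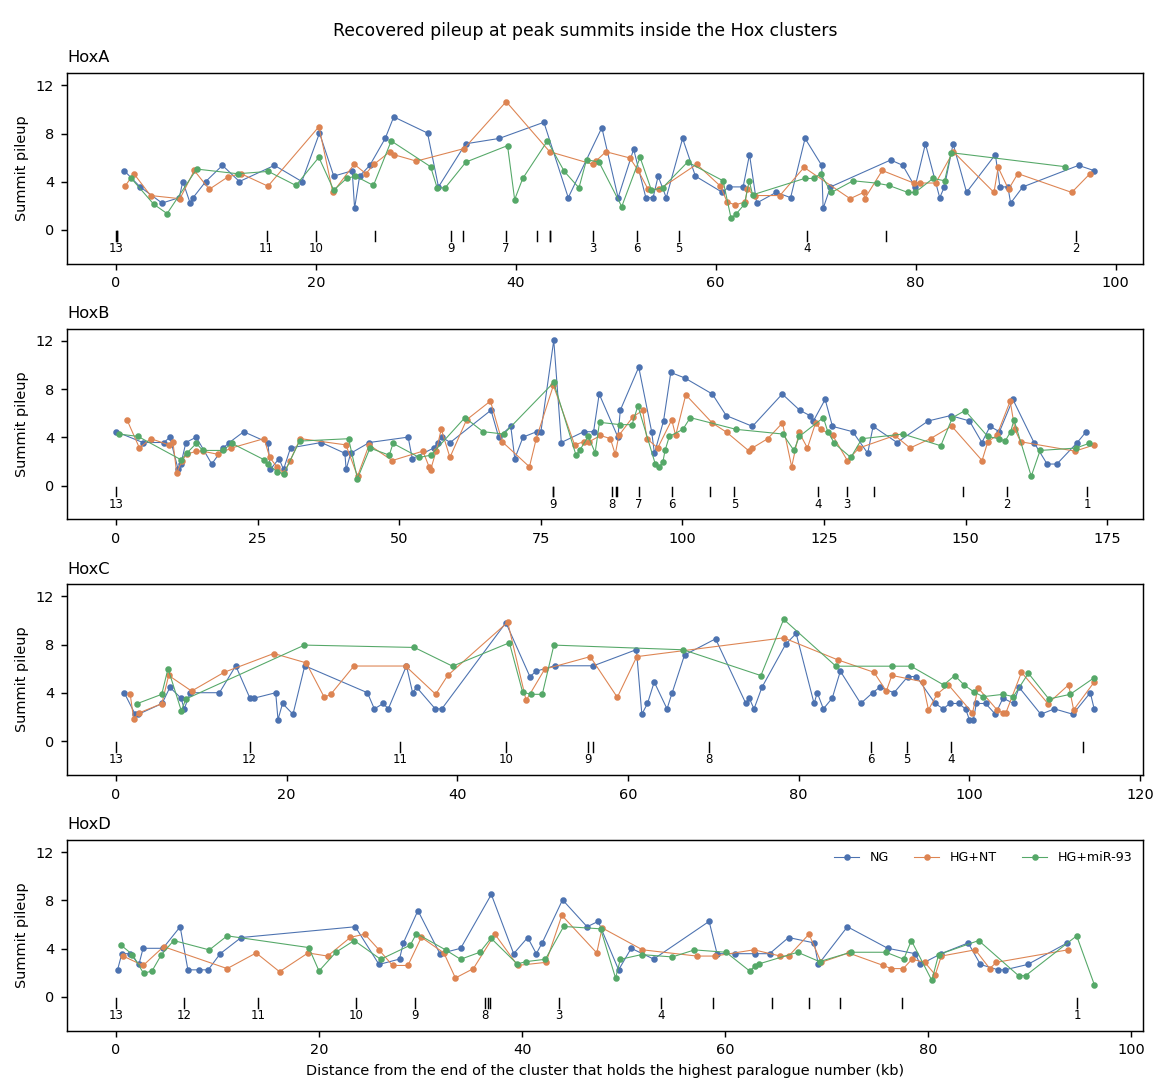
Recovered pileup (vertical axis) at peak summits inside each Hox cluster, without the end of HoxA past Hoxa2, against the distance in kb from the end with the highest paralogue number, under NG, HG+NT and HG+miR-93; ticks under the curves are TSSs, with 1 paralogue number per gene. The Hoxb9 site was the highest of HoxB in each list, at 12.1 under NG, 8.31 under HG+NT and 8.55 under HG+miR-93, and HoxC had fewer and wider peaks in the high glucose lists.

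High sites that recurred at the same place were a small share of all, in the clusters and over the genome. Of the summits among the 20000 strongest by either measure, 55 lay in the clusters under NG, 44 under HG+NT and 39 under HG+miR-93, and 5 of the NG summits had one within 150 nt in both other lists. These 5 were 9.09% of the NG, 11.4% of the HG+NT and 12.8% of the HG+miR-93 summits, against 10.4%, 9.78% and 9.45% over all chromosomes. Those described here lay near Hoxa9, Hoxa10, Hoxb9 and Hoxd3. HoxA had 3 of the 5 and HoxC had 0, but the Hoxc13 summits, 213 to 248 nt before the first base of HoxC, recurred as well. With the clusters taken 500 nt further on either side, a setting chosen after seeing the data, 6 summits recurred, 1 of them in HoxC. The Hoxa9 site lay 286 nt past a TSS in the coding sequence of an exon, with pileups of 7.15 under NG (4.08 to 11.6), 6.75 under HG+NT (4.41 to 9.89) and 5.64 under HG+miR-93 (3.77 to 8.09). The Hoxa10 site lay 283 nt past its TSS in the annotated UTR, with 8.04 (4.76 to 12.7), 8.57 (5.90 to 12) and 6.02 (4.09 to 8.55). The Hoxb9 site lay 79 nt past a TSS in coding sequence, and the Hoxd3 site 367 nt past a TSS in the UTR of Hoxd3 under NG and HG+NT. The intervals of the lists overlapped at each of the 5 sites. CNAGGNGGC was found in the printed stretch of Hoxa9 but at 0 of the Hoxa10, Hoxb9 and Hoxd3 sites, and in 7.15%, 7.52% and 7.22% of the 201 bases around the 20000 summits with the most fragments of NG, HG+NT and HG+miR-93. Around the promoter summits of the 39 members it was found in 6, 4 and 8 (15.4%, 10.3% and 20.5%). A CCAAT box was found there in 15, 12 and 16 (38.5%, 30.8% and 41%), against 23.5%, 23.4% and 22.5% of those 20000 summits. The 20000 lie anywhere in the genome, with a median of 7 CpG in each list, against 10, 11 and 12 around the Hox summits. The share at promoter summits of other genes was not counted.

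Between NG and HG+NT, cells in normal glucose were compared with cells in high glucose carrying the non-targeting mimic. Of the 39 promoters, 2 were at least 1.5-fold higher under HG+NT (5.13%), where 5.30% of all promoters were, and 6 were at least 1.5-fold lower (15.4%), where 16.9% of all were. The shares of Hox promoters were near those of all promoters in both directions. For 0 members did the Poisson intervals of the lists leave a gap, against 1.23% of all promoters, and for 0 did the 95% exact interval of the ratio leave out 1, against 3.95%. The median log2 ratio of all promoters was −0.16, so that the lists differed in general level. With each list divided by its median promoter, 3 members were higher and 1 lower, against 12.8% and 6.71% of all promoters. The members past 1.5-fold were Hoxc12 and Hoxc13 above, and Hoxb6, Hoxb7, Hoxb8, Hoxd4, Hoxd8 and Hoxd13 below.

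The 2 higher members lie side by side at the outer end of HoxC. Hoxc12 had pileups of 3.57 under NG (1.54 to 7.04), 7.27 under HG+NT (4.83 to 10.5) and 7.97 under HG+miR-93 (5.72 to 10.8), with NG the lowest. Its ratio of HG+NT to NG was 2.03 (0.904 to 5.17), the largest of the 39, but with promoters of 1000 nt on either side its log2 ratio was 0.22 in place of 1.02, under 1.5-fold. Its summits lay 47 nt from the TSS under NG but 2844 nt under HG+NT and 6435 nt under HG+miR-93, in peaks 1010, 7180 and 16863 bp wide. The values of the latter lists are thus those of a wide region that reaches the promoter. Hoxc13 had a ratio of 1.56 (0.862 to 2.97), with summits 248, 223 and 213 nt before the TSS, so that its values in the 3 lists belong to the same place. Its log2 ratio of 0.64 became 0.49 by the deposited folds and 0.58 by the chromosome's median, both under 1.5-fold. Hoxc6 had 4.02 under NG (1.84 to 7.63), 5.71 under HG+NT (3.58 to 8.65) and 6.22 under HG+miR-93 (4.25 to 8.78). Hoxc11 had the smallest ratio of HoxC, 0.997 (0.495 to 2.08).

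**Figure D4:**
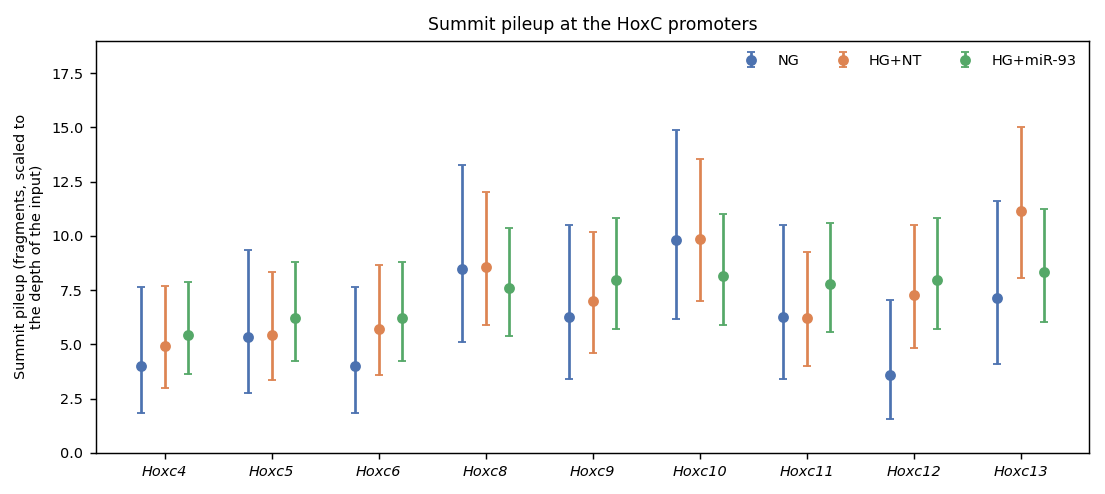
Summit pileup (fragments scaled to the depth of the input, vertical axis) at the 9 HoxC promoters under NG, HG+NT and HG+miR-93; bars are 95% exact Poisson intervals. Hoxc12 went from 3.57 to 7.27 and 7.97 and Hoxc13 from 7.15 to 11.2 and 8.36, with overlapping intervals throughout.

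The ratios of the clusters went with those of their chromosomes. The HoxC members had a median log2 ratio of HG+NT to NG of 0.17 (0.01 to 0.64), and 8 of the 9 were higher under HG+NT. The 772 other promoters of chromosome 15 had a median of 0.21, and 4 of the 9 HoxC members lay above it. The HoxD members had −0.48 (−0.68 to −0.23), and 9 of 9 were lower under HG+NT. The 1825 other promoters of chromosome 2 had −0.25, and 2 of the 9 lay above it. HoxB had −0.43 (−0.78 to −0.03), with −0.20 over 1627 other promoters of chromosome 11, and HoxA had −0.20 (−0.56 to 0.09), with −0.08 over 1094 of chromosome 6. HoxC had a median above 0, as did its chromosome, but by the deposited folds the median was −0.053 for HoxC and 0.16 for HoxA, and divided by the median of all promoters that of HoxA was 0.04. HoxB and HoxD lay 0.23 below theirs, a difference inside the intervals of their medians. With each pileup divided by the median promoter of its chromosome and list, 1 member was at least 1.5-fold higher and 1 lower, against 9.85% and 8.47% of all promoters. From NG to HG+miR-93 the HoxC median was 0.31 (−0.16 to 0.63), against 0.10 over chromosome 15, with 7 of the 9 above that value. The medians of HoxA, HoxB and HoxD were −0.27, −0.42 and −0.32, against −0.20, −0.26 and −0.33 over their chromosomes.

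HoxC peaks were fewer and wider in the high glucose lists than under NG, as were those of chromosome 15 to a smaller extent. HoxC held 74 peaks under NG with a median width of 824 bp, 40 under HG+NT with 2011.5 bp and 30 under HG+miR-93 with 2265.5 bp. Per 100 kb these were 63.9, 34.6 and 25.9 peaks, against 53.5, 34.0 and 36.7 over chromosome 15 and 39.4, 32.1 and 34.2 over the genome. Chromosome 15 had median widths of 1040, 1716 and 1550 bp. HoxC was thus narrower in its peaks than its chromosome under NG and wider in both other lists. A wider peak takes its height from a larger stretch, and the part of this in the HoxC pileups was not tested.

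Among the lower members, Hoxb8 had the smallest ratio of HG+NT to NG, 0.547 (0.259 to 1.15). Its pileups were 7.59 under NG (4.42 to 12.2), 4.15 under HG+NT (2.37 to 6.75) and 5.05 under HG+miR-93 (3.30 to 7.40), highest under NG with overlapping intervals. The NG summit lay 2278 nt before the TSS, and with summits within 500 nt alone the log2 ratio was 0.05 in place of −0.87. Hoxb6 had 9.38 (5.81 to 14.3), 5.45 (3.38 to 8.34) and 5.64 (3.77 to 8.09), and Hoxb7 had 9.83 (6.16 to 14.9), 6.23 (3.99 to 9.27) and 6.61 (4.58 to 9.23) in the same order of lists. These 3 neighbours in the middle of HoxB were all highest under NG. In HoxD, Hoxd8 had 8.49 (5.11 to 13.3), 5.19 (3.17 to 8.02) and 4.86 (3.14 to 7.17), with a ratio of HG+NT to NG of 0.612 (0.310 to 1.21). By the deposited folds its log2 ratio was 0.03 in place of −0.71. Hoxd4 had 6.25 (3.42 to 10.5), 3.90 (2.18 to 6.42) and 3.89 (2.37 to 6.0). Hoxd1 had the largest ratio of HoxD, 0.872 (0.367 to 2.17), from 4.47 (2.14 to 8.21) under NG to 3.90 (2.18 to 6.42) under HG+NT.

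The largest ratio of HoxA was that of Hoxa7, at 1.19 (0.682 to 2.15), highest under HG+NT, where its peak belonged to another TSS than under NG and HG+miR-93. Such a change of TSS between lists was found for 7 of the 39 members, among them Hoxb6, Hoxb8 and Hoxd4. The smallest of HoxA was that of Hoxa3, at 0.673 (0.348 to 1.32), from 8.49 under NG (5.11 to 13.3) to 5.71 under HG+NT (3.58 to 8.65), with 5.83 under HG+miR-93 (3.93 to 8.32). By the deposited folds its log2 ratio was 0.36 in place of −0.57. The largest of HoxB was that of Hoxb13, at 1.22 (0.550 to 2.90), from 4.47 (2.14 to 8.21) to 5.45 (3.38 to 8.34), with 4.28 under HG+miR-93 (2.68 to 6.47), and by folds its log2 ratio was −0.80 in place of 0.29. Each of these ratios had an interval that held 1.

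The miR-93 mimic was then compared with the non-targeting mimic in high glucose. Of the members, 0 were at least 1.5-fold higher under HG+miR-93, where 2.16% of all promoters were, and 1 was at least 1.5-fold lower (2.56%), where 5.66% of all were. By the deposited folds 1 was higher and 5 were lower, against 6.22% and 9.74% of all promoters. The intervals of the lists left a gap for 0 members, against 0.426% of all promoters, and the interval of the ratio left out 1 for 0, against 2.24%. The lower member was Hoxb2, a hindbrain gene, with pileups of 7.15 under NG (4.08 to 11.6), 7.01 under HG+NT (4.62 to 10.2) and 4.47 under HG+miR-93 (2.83 to 6.71). Its ratio was 0.637 (0.349 to 1.15), but its log2 ratio of −0.65 became −0.37 with promoters of 1000 nt on either side and −0.41 by the deposited folds, both under 1.5-fold. The largest ratio was that of Hoxd11, at 1.39 (0.700 to 2.88), followed by Hoxd13 at 1.37 (0.650 to 3.04) and Hoxa11 at 1.34 (0.668 to 2.78). Hoxa11 turned with wider promoters as given above, and Hoxd11, whose HG+miR-93 summit lay 3055 nt from the TSS, turned to a log2 ratio of −0.34 by the deposited folds. These 3 had been below NG under HG+NT, which the same HG+NT values enter.

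The other extremes of the clusters stayed under 1.5-fold. Hoxb3 had a ratio of 1.26 (0.693 to 2.35), from 4.93 under HG+NT (2.97 to 7.71) to 6.22 under HG+miR-93 (4.25 to 8.78), with 5.81 under NG (3.09 to 9.93). This value rests on the peak taken, since with summits within 500 nt alone Hoxb3 went from 2.08 under HG+NT to 6.22 under HG+miR-93, a log2 ratio of 1.58. Hoxc11 had 1.25 (0.734 to 2.16), Hoxa7 had 0.694 (0.434 to 1.11), Hoxc13 had 0.748 (0.479 to 1.17) and Hoxd3 had 0.863 (0.494 to 1.52). The medians of the clusters, as log2 ratios of HG+miR-93 to HG+NT, were 0.01 for HoxA (−0.29 to 0.23), 0.07 for HoxB (−0.35 to 0.28), 0.13 for HoxC (−0.27 to 0.19) and 0.09 for HoxD (−0.10 to 0.46). The other promoters of their chromosomes had −0.07, −0.08, −0.06 and −0.06, and the median of all promoters was −0.07. The clusters lay 0.09 to 0.19 above these, but the sign depended on the setting for HoxA, HoxC and HoxD. HoxA was at −0.02 with pileups divided by the chromosome's median and at −0.21 with promoters of 1000 nt on either side. By the deposited folds HoxA was at −0.45. With summits within 500 nt alone, the medians were −0.29 for HoxA (8 members), −0.27 for HoxC (3) and −0.15 for HoxD (2). HoxB stayed above 0 in that setting, at 0.04 over 3 members. Every interval of the reported medians held 0. In all, 25 of the 39 members were higher under HG+miR-93 than under HG+NT and 14 lower. The share of all promoters going either way was not counted. The median log2 ratio of the 39 was 0.05 (−0.08 to 0.14), against −0.07 over 21796 other promoters. By the deposited folds, 7 of 21 ratios of named members changed sign.

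**Figure D5:**
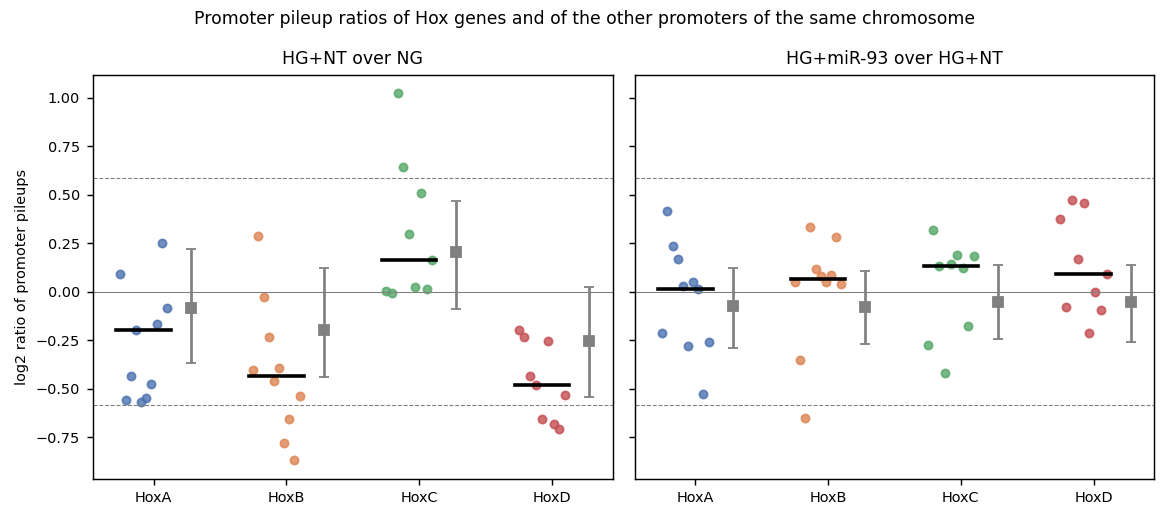
log2 ratio of promoter pileups (vertical axis) for 38 of the 39 Hox genes by cluster, HG+NT over NG at the left and HG+miR-93 over HG+NT at the right; black bars are medians of all genes of a cluster, grey squares with bars the median and quartiles of the other promoters of the same chromosome, and dashed lines mark 1.5-fold. HoxC and chromosome 15 were both above 0 at the left, at 0.17 and 0.21, and all cluster medians were near 0 at the right.

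HG+miR-93 was last compared with NG, a comparison that reuses a list from each of those above. Of the members, 2 were at least 1.5-fold higher (5.13%), where 4.26% of all promoters were, and 6 were at least 1.5-fold lower (15.4%), where 22.1% of all were. The intervals of the lists left a gap for 0, against 1.42% of all promoters. The interval of the ratio left out 1 for 1 member, Hoxc12, which is 2.56% of the 39, against 6.43% of all promoters. Hoxc12 had a ratio of 2.23 (1.03 to 5.51), on a summit 6435 nt from its TSS under HG+miR-93. The other higher member was Hoxc6, at 1.55 (0.722 to 3.68), and both were at less than 1.5-fold with promoters of 1000 nt on either side. The lower members were Hoxa4, Hoxb2, Hoxb6, Hoxb8, Hoxd4 and Hoxd8. Hoxa4 had the smallest ratio, 0.563 (0.286 to 1.13), from 7.59 under NG (4.42 to 12.2) over 5.19 under HG+NT (3.17 to 8.02) to 4.28 under HG+miR-93 (2.68 to 6.47). With each list divided by its median promoter, 4 members were higher and 0 lower, against 11.2% and 8.83% of all promoters.

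The genes that act with Hox proteins or on their clusters were read in the same way. The TALE homeodomain proteins (Pbx, Meis and Pknox), which bind DNA together with Hox proteins, had median percentiles of 58.3, 68.7 and 64.8 over 9 promoters, with Pknox1 the highest at 90.1, 97.9 and 97.6. Of these 9, Meis3 alone was past 1.5-fold between NG and HG+NT, from 3.57 to 6.23, which is 11.1% of the list against 5.30% of all promoters. The 14 regulators of Hox clusters, among them Polycomb and trithorax proteins, Cdx factors, CTCF and cohesin, had medians of 73.1, 80.1 and 73.4. Ctcf lay at percentiles 96.4, 94.9 and 95.3 and Eed, a Polycomb subunit, at 95.6, 94.1 and 94.5, whereas Cdx4, an embryonic activator of Hox genes, lay at 8.26, 25.1 and 28.8. Of the 14, Cdx2 was past 1.5-fold above NG under HG+NT (7.14% against 5.30%). Rnf2, Ezh2 and Ring1 were past 1.5-fold below NG under HG+miR-93, and these 21.4% of the list were near the 22.1% of all promoters. The 5 homeobox genes of the ParaHox cluster or beside Hox clusters (Evx1, Evx2, Gsx1, Gsx2 and Pdx1) lay lower, with medians of 31.2, 40.2 and 44.5 and 0 past 1.5-fold in any comparison.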

How the data were processed

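Nuclei of 2 replicates per condition were digested with DNaseI, and per the labels and the study's methods the authors trimmed reads (TrimGalore!), mapped them to mm10 (Bowtie), filtered out duplicates and ran MACS2 on pooled replicates with digested genomic DNA as input. CASAVA 1.8.2 is named in the submitters' processing notes, and no versions of Bowtie or MACS2 are given in the sources used here. The deposited lists give each peak a fold over the input at the summit, a ratio of pileup plus 1 to input mean plus 1 as the authors' caller writes it. They also give a −log10 p and a −log10 q, computed by the authors' caller from a Poisson model of the input. They hold 1036304 (NG), 846027 (HG+NT) and 900109 (HG+miR-93) peaks, of which 73, 94 and 1 had a −log10 q of at least 2.

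The whole number of fragments and the input mean that give each pair of fold and p were solved for, with the input mean at 1.42826 or a multiple of 0.02, a step chosen after the values were seen. A single solution was found for 99.998%, 99.997% and 99.83% of peaks. The solving was also run on simulated peaks made with the same formulas, scale and step. That run checks the arithmetic and cannot show that the step matches the authors' caller. The pileup is fragments divided by depth over the input. Read totals were not analysed here. Promoters were 500 nt on either side of GENCODE vM21 start sites. Intervals are 95% exact Poisson or binomial intervals, or order-statistic intervals of medians, and treat fragments as independent. A ratio of 1.5-fold was the threshold, and no test across conditions was possible on pooled lists. Results for 1 member and 1 marker gene are not reported here, though both stay in counts and medians. Each cluster's highest and lowest member by mean percentile and those with the extreme ratios of HG+NT to NG and HG+miR-93 to HG+NT were named, besides paralogue group 11 and members past the threshold. The Hox members, gene lists, motifs and rules were chosen with earlier results of these data known. Promoter sequences are from RefSeq on GRCm38.p6 and sites from the genome of that build. The promoter table has no entry for 17 members, among them Hoxa4, Hoxb2, Hoxb3, Hoxb5, Hoxb6, Hoxb7, Hoxb9, Hoxb13, Hoxc5, Hoxc6 and Hoxc8 to Hoxc13. The software was scipy 1.17.1 and numpy 2.4.6 for the statistics, pandas 2.3.3 for tables and matplotlib 3.10.9 for plots, under Python 3.11.15. Alternatives were other peaks per promoter, windows, scalings, values and numbers of strongest peaks, and, chosen after seeing the data, leaving out HoxC or olfactory receptor promoters and widening the clusters for recurring summits.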

Additional observations from a re-analysis of the deposited data

How the results depend on the processing

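No paired analysis was possible because each condition has 1 list from pooled replicates, so that no replicate could be left out either. The causes of the shifts below were not tested. With only summits within 500 nt of a TSS, the median Hox percentile was 45.9 under NG, 47.5 under HG+NT and 50.4 under HG+miR-93. With only the 50000 strongest peaks it was 31.0 under NG and 27.7 under HG+NT, where promoters without such a peak share the lowest rank. Of the other 19 alternatives for these medians, 0 moved past the interval.

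Counts of members at least 1.5-fold apart are given with the share of all promoters in parentheses. From NG to HG+NT the higher (2) came to 1 of 19 with near summits (5.75%), 1 by the chromosome's median (9.85%), 4 by the deposited folds (7.32%) and 0 of 30 without HoxC, and the lower (6) to 1 by the chromosome's median (8.47%) and 1 by that of all promoters (6.71%). From HG+NT to HG+miR-93 the higher (0) came to 1 of 16 with near summits (2.37%) and 1 by folds (6.22%), and the lower (1) to 5 by folds (9.74%). From NG to HG+miR-93 the higher (2) came to 0 with promoters of 1000 nt (3.57%), 1 of 20 with near summits (4.55%), 1 by the chromosome's median (8.65%), 4 by the median of all promoters (11.2%) and 0 of 30 without HoxC, and the lower (6) to 2 by the chromosome's median (11.4%) and 0 by that of all promoters (8.83%).

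Cluster medians of HG+NT over NG by folds were 0.16 for HoxA, −0.053 for HoxC and −0.22 for HoxD, and with near summits −0.71 for HoxD, over 3 members. Those of HG+miR-93 over HG+NT were −0.45 for HoxA by folds and −0.15 for HoxD with near summits, and that of HoxA over NG was −0.017 by the median of all promoters. Of 347 alternative values for named members' ratios, 41 had the opposite sign to the reported one, 21 of them by folds. Of these, 2 were of members past 1.5-fold, from NG to HG+NT, Hoxb8 with near summits (0.048) and Hoxd8 by folds (0.029). The others included Hoxa11 (0.68 with promoters of 1000 nt, 0.37 by folds), Hoxa3 (0.36 by folds) and Hoxb13 (−0.80 by folds), also from NG to HG+NT. The clusters held 10, 6 and 4 of the 5000 strongest peaks, 35 and 33 of the 50000 strongest under HG+NT and HG+miR-93, and 52, 43 and 37 of the 20000 strongest by pileup. With as few as 8 fragments at a Hox summit, the interval of each member's ratio held 1 in the 3 comparisons except for Hoxc12 in 1 of them.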

Other observations

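Non-coding genes of the clusters carried some of the same peaks. Haglr, which starts beside Hoxd1, shared the Hoxd1 peak in all 3 lists, with pileups of 4.47, 3.90 and 5.05 under NG, HG+NT and HG+miR-93. Hotair, a non-coding RNA between Hoxc11 and Hoxc12, had 4.02 under NG (1.84 to 7.63), 6.23 under HG+NT (3.99 to 9.27) and 7.77 under HG+miR-93 (5.55 to 10.6), at percentiles 31.2, 66.2 and 84.8. It was lowest under NG, as Hoxc12 was, with overlapping intervals, and under HG+miR-93 its peak was that of Hoxc11. Among the microRNA genes of the clusters, Mir196b of HoxA had 8.04, 5.71 and 5.25, Mir196a-1 of HoxB had 4.02, 3.64 and 4.28, and Mir196a-2 of HoxC had 6.25, 7.01 and 7.97. Mir10a of HoxB had 5.81, 5.19 and 5.64, and Mir10b of HoxD had 6.25, 3.38 and 3.89. For each of these genes the intervals of the lists overlapped. Mir615, inside HoxC, had 5.36, 4.93 and 6.22. The microRNA values are those of peaks that reach the starts of precursors as annotated, and the summits can lie far from those starts. Mir196a-1 starts at chr11:96265164, and its HG+NT summit lay at 96262498. The HG+NT peak of Mir196a-2 was that of Hoxc9, and the HG+miR-93 peak of Mir10a was that of Hoxb4. Shared peaks are not independent of the neighbouring Hox values.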
